A study of Mus musculus with 31 samples.

Results

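Matrix metalloproteinases and their tissue inhibitors were followed in immune cells sorted from irradiated mouse mammary tumours. The 10 genes were chosen by symbol, namely Mmp2, Mmp8, Mmp9, Mmp12, Mmp13, Mmp14, Mmp19, Timp1, Timp2 and Timp3, and all 10 were found among the 38406 gene symbols counted in each of 31 bulk RNA-seq libraries. Every group came from wildtype female C57BL/6 mice that carried AT3-OVA cells, a single triple negative mouse mammary tumour line modified to carry ovalbumin, in the mammary fat pad. Tumours received local radiotherapy under anaesthesia as 3x4Gy (fractions a day apart) or as 1x20Gy (a single fraction), and the mock schedules 3x0Gy and 1x0Gy gave the matching anaesthesia without radiation. Cells positive for CD45.2, a protein carried by all leukocytes, were taken on day 5 or day 13 after the end of treatment.

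At day 5 the groups were 3x4Gy (6 libraries) with its mock 3x0Gy (4 libraries), and 1x20Gy (6 libraries) with its mock 1x0Gy (4 libraries). At day 13 they were 1x20Gy (7 libraries) and its mock 1x0Gy (4 libraries). Each irradiated group was compared with its own mock, to ask whether transcripts of the proteinase and inhibitor genes in tumour leukocytes differed after irradiation. The labels name replicates but not animals, so p-values measure the spread between these samples, which may be technical. Day 13 libraries carry another sample code than day 5 libraries, so day and experiment cannot be told apart, and levels were not compared across days.

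Matrix metalloproteinases are zinc-dependent endopeptidases that are made as inactive proenzymes and cut collagens, elastin, gelatin and many cell surface and signalling proteins. The tissue inhibitors of metalloproteinases (TIMPs) bind the active enzymes, and Timp2 also takes part in the activation of the Mmp2 proenzyme by the membrane-anchored Mmp14. In tumours these enzymes come from leukocytes as well as from fibroblasts and tumour cells: Mmp8 and Mmp9 are stored in neutrophil granules, Mmp12 is the macrophage metalloelastase, and Mmp2 is best known as a fibroblast gelatinase.

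Libraries held between 2641229 and 7541144 gene counts. The sorted cells carried leukocyte transcripts in every library, with a summed level of Ptprc (which encodes CD45), Coro1a and Laptm5 between 1228 and 3705 CPM (the count scaled to library size by the TMM method). This sum was 2487 to 3705 CPM after 3x4Gy against 1228 to 2356 CPM after 3x0Gy, without overlap. Ptprc alone was higher there by 0.88 on the log2 scale (edgeR adjusted p = 0.026). In the 1x20Gy comparisons of day 5 and day 13 the sums overlapped those of the mock. Macrophage markers were the most abundant of the cell type lists, between 5243 and 23819 CPM in sum over 12 genes. Transcripts listed for cells the sort should remove were also present: 8 epithelial genes summed to between 153 and 1931 CPM and 11 fibroblast genes to between 65.6 and 297 CPM. The fibroblast list includes Thy1, whose log2 fold changes after 1x20Gy (0.75 at day 5, 0.57 at day 13) were nearer those of the T cell gene Cd3d (0.86 and 0.82) than those of the collagens. How much of the fibroblast sum came from leukocytes was not tested. The epithelial and fibroblast lists differed between irradiated and mock groups, so their values are given beside the results they move with. How far epithelial cells and fibroblasts account for any difference was not tested. In bulk samples, fewer cells of a type and less RNA per cell cannot be told apart. A clone-named symbol, RP23-81C12.3, took between 19.2% and 31.5% of gene counts at day 13 after 1x20Gy, against 2.15% to 15.01% after 1x0Gy; leaving it out changed no call of the 10 genes.

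Per kilobase of exon, Timp2 had the highest mean level of the 10 genes in 5 of the 6 groups. At day 5 after 1x20Gy the order of the means was Timp2 (63.5 ± 22.2 CPM per kb, SD, n = 6), Mmp14 (48.3 ± 19.0), Mmp19 (31.97 ± 14.98), Mmp13 (24.8 ± 6.79), Mmp12 (16.5 ± 7.99), Mmp2 (6.07 ± 2.27), Timp1 (2.96 ± 2.12), Mmp9 (2.37 ± 2.08), Mmp8 (1.02 ± 0.530) and Timp3 (0.473 ± 0.206). Mmp13 stood above Mmp12, Mmp12 above Mmp2, Mmp2 above Timp1 and Mmp8 above Timp3 by more than the larger SD of the pair, and the other neighbours in this order lay within it. After 1x0Gy at day 5 the order was Timp2 (114 ± 38.9 CPM per kb, n = 4), Mmp14 (43.9 ± 5.82), Mmp13 (28.9 ± 8.08), Mmp2 (14.1 ± 7.12) and Mmp19 (12.1 ± 5.95), followed by Mmp12 (7.82 ± 3.23). Mmp19 thus ranked 3 of 10 in the irradiated group and 5 of 10 in its mock, and the same ranks were seen for 3x4Gy (29.6 ± 10.5 CPM per kb, n = 6) against 3x0Gy (7.38 ± 3.20, n = 4). At day 13 after 1x20Gy Mmp14 came first (44.4 ± 13.15 CPM per kb, n = 7) and Timp2 second (43.1 ± 6.31), within their spread, while after 1x0Gy Timp2 came first (87.8 ± 9.01, n = 4) and Mmp14 second (49.5 ± 29.9).

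**Figure D1:**
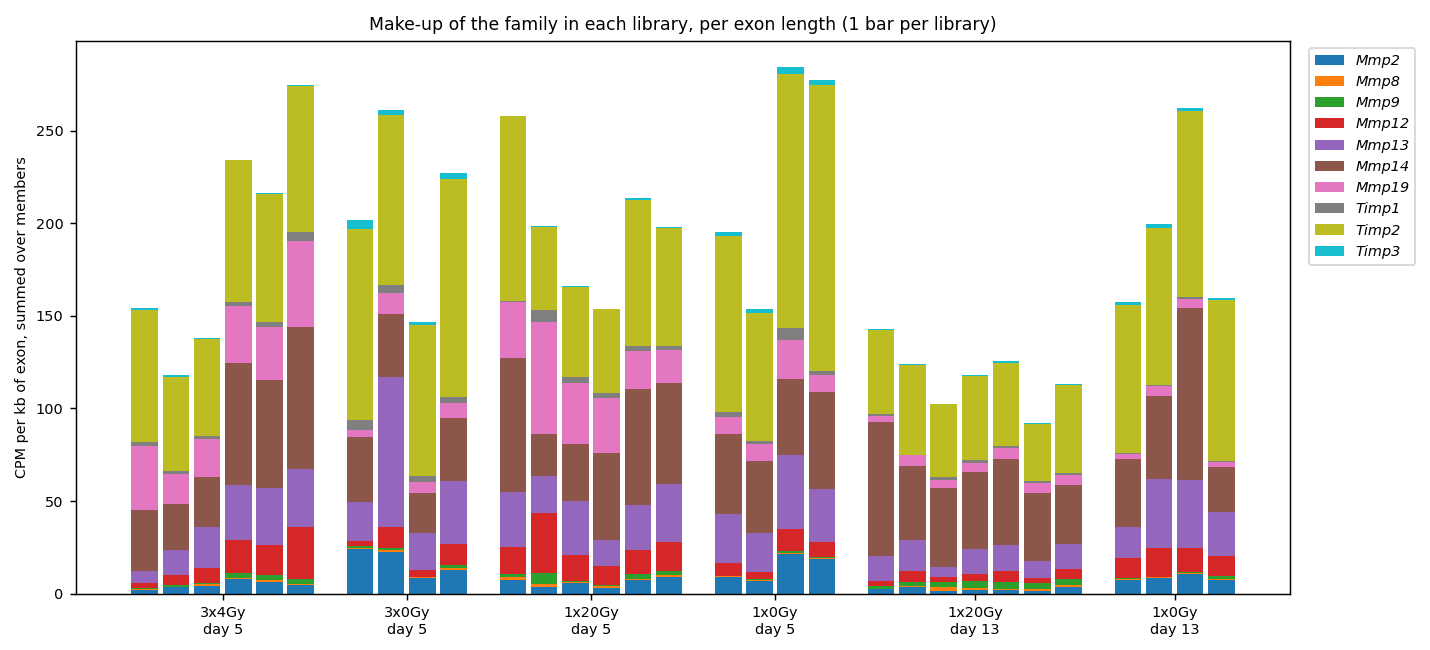
Level of the 10 genes per library, as stacked bars of CPM per kb of exon (linear axis), with 1 bar per library and each irradiated group left of its mock. At day 5 the Timp2 part had a median of 30.8% of the stack after 1x20Gy against 48.5% after 1x0Gy, and the Mmp19 part is wider in the day 5 irradiated libraries, where it was 9.09% to 30.3% of the stack after 1x20Gy against 3.36% to 7.39% after 1x0Gy.

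All 10 genes had enough counts to be tested at day 5. At day 13 Mmp8 and Timp1 did not pass the count filter, which left 8. After 3x4Gy 3 of 10 genes were called at an adjusted p below 0.05 by edgeR's quasi-likelihood test, 1 higher (Mmp19) and 2 lower (Mmp2, Timp3), where the test called 12.29% of the 12021 genes tested (5.2% higher and 7.09% lower). Of the same 10, 5 were called after 1x20Gy at day 5, 2 higher (Mmp9, Mmp19) and 3 lower (Mmp2, Timp2, Timp3), against 8.55% of all genes (3.67% higher and 4.88% lower). At day 13, 6 of 8 were called after 1x20Gy, 1 higher (Mmp9) and 5 lower (Mmp2, Mmp12, Mmp13, Timp2, Timp3), against 8.05% of 11071 genes (4.22% higher and 3.83% lower). The median log2 fold change of the members was -0.21 after 3x4Gy, 0.03 after 1x20Gy at day 5 and -1.12 at day 13, beside 0.00, 0.02 and 0.01 over all genes tested. Mmp2 and Timp3 fell in all 3 comparisons with a mock.

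**Figure D2:**
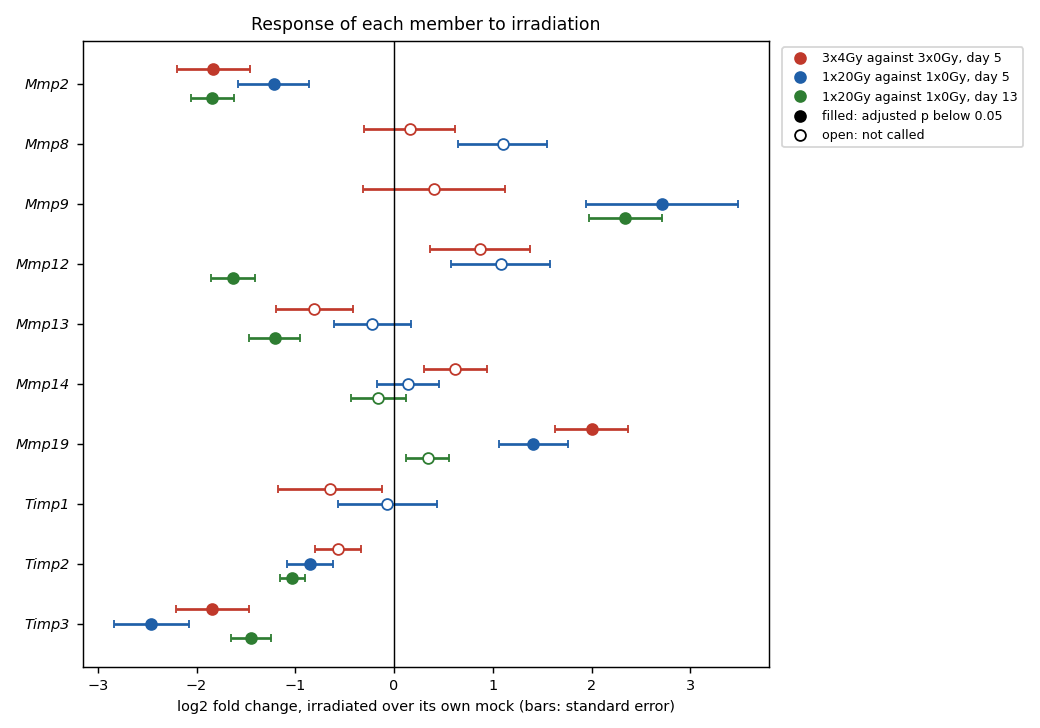
Log2 fold change of each gene, irradiated over its own mock (linear axis, bars are standard errors from edgeR), for 3x4Gy at day 5 (red), 1x20Gy at day 5 (blue) and 1x20Gy at day 13 (green). Filled points passed an adjusted p of 0.05: Mmp2 and Timp3 lie left of 0 in all 3 comparisons, and Mmp12 lies right of 0 at day 5 (open points, 0.87 and 1.08) and left of it at day 13 (-1.63).

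CPM values of a member in the irradiated libraries did not overlap those of the mock for 4 of 10 genes after 3x4Gy, 1 higher (Mmp19) and 3 lower (Mmp2, Timp2, Timp3), where 9.58% of all genes tested did not overlap (3.91% higher and 5.67% lower). At day 5 after 1x20Gy this held for 1 of 10 genes (Timp3, lower), against 11.5% of all genes. At day 13 after 1x20Gy it held for 5 of 8 genes, 1 higher (Mmp9) and 4 lower (Mmp2, Mmp12, Timp2, Timp3), against 7.28% of all genes (3.31% higher and 3.97% lower).

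Mmp2 (chr8:92827291-92853420, GRCm38, plus strand) encodes gelatinase A, which degrades denatured collagen and basement membrane collagen. Mmp2 had 7.27, 11.5, 13.8, 16.4, 20.6 and 26.3 CPM after 3x4Gy, against 28.1, 42.8, 76.7 and 81.2 CPM after 3x0Gy. Every 3x4Gy library was below every mock library. The log2 fold change was -1.83 (SE 0.37, edgeR adjusted p = 0.0022), 3.57-fold lower. The 1x20Gy libraries of day 5 had 10.8, 12.7, 19.5, 24.3, 24.6 and 30.8 CPM of Mmp2, against 24.0, 30.4, 63.7 and 72.4 CPM after 1x0Gy. The groups overlapped, with 1x0Gy libraries 1 and 2 within the irradiated range, and the log2 fold change was -1.22 (SE 0.36, edgeR adjusted p = 0.036). This call was lost without 1x0Gy library 3 (-0.94, adjusted p = 0.18), 1x0Gy library 4 (-1.05, adjusted p = 0.15), 1x20Gy library 2 (-1.11, adjusted p = 0.078) or 1x20Gy library 4 (-1.09, adjusted p = 0.085). It was lost with limma voom (-1.16, adjusted p = 0.053), and it held in 16 of 22 alternatives (edgeR, DESeq2 or limma voom adjusted p between 0.0025 and 0.33).

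At day 13 Mmp2 had between 4.52 and 11.5 CPM after 1x20Gy (median 7.52, n = 7), against 24.5, 25.2, 28.6 and 36.4 CPM after 1x0Gy. The groups lay apart, and the log2 fold change was -1.84 (SE 0.22, edgeR adjusted p = 0.00048), called in all 22 alternatives. Between groups, fibroblast markers moved in the same direction: 7 of 8 tested genes of that list were called lower after 3x4Gy (Col1a1, Col1a2, Col3a1, Col6a3, Dcn, Postn and Sparc), 3 of 8 after 1x20Gy at day 5 and 4 of 8 at day 13. Thy1 of that list was higher after 1x20Gy without passing the test (0.75 at day 5 and 0.57 at day 13). The 11 fibroblast genes, all with counts in every group, summed to between 65.6 and 149 CPM after 3x4Gy against 149 to 297 CPM after 3x0Gy, to between 83.8 and 171 CPM after 1x20Gy against 124 to 235 CPM after 1x0Gy at day 5, and to between 80.4 and 121 CPM after 1x20Gy against 112 to 118 CPM after 1x0Gy at day 13. Within groups the picture differed. Among 3x4Gy libraries Mmp2 rose as the fibroblast sum fell, from 7.27 CPM at a sum of 149 CPM to 26.3 CPM at 65.6 CPM. Among 1x0Gy libraries of day 5 the highest Mmp2 (72.4 CPM) lay with the highest sum (235 CPM). No group other than 3x4Gy was strictly ordered in either direction. The part of fibroblast content in the Mmp2 result was not tested beyond the covariate fit. With the mean log2 CPM of the fibroblast and epithelial lists as a covariate, the log2 fold change of Mmp2 was -1.70 after 3x4Gy (edgeR adjusted p = 0.23) and -1.12 after 1x20Gy at day 5 (adjusted p = 0.33), and at day 13 it was -1.99 (adjusted p = 0.0092). In that covariate the 3x4Gy and 3x0Gy groups did not overlap, at 1.85 to 3.50 against 3.90 to 4.59 on the log2 scale. The 1x20Gy and 1x0Gy groups of day 5 barely overlapped in it (1.80 to 3.42 against 3.32 to 4.31). The day 5 fits can therefore hardly tell the lists from irradiation. At day 13 the lists moved in opposite directions (median log2 fold change -1.15 for fibroblast and 0.5 for epithelial genes). Their joint mean therefore cannot adjust for either list alone.

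Mmp9 (chr2:164940780-164955850, plus strand) encodes gelatinase B, which neutrophils release from granules and which other myeloid cells can also make. It was a low gene, with between 1 and 127 counts per library. Mmp9 had 1.00, 1.04, 2.68, 8.25, 8.29 and 8.56 CPM after 3x4Gy, against 0.685, 3.83, 4.43 and 5.89 CPM after 3x0Gy. The 3x4Gy libraries split into 3 low and 3 high ones around the mock values, and the log2 fold change of 0.40 (SE 0.72, edgeR adjusted p = 0.75) did not pass the test. Day 5 1x20Gy libraries had 2.29, 2.63, 5.48, 7.64, 10.2 and 22.1 CPM of Mmp9, against 0.128, 1.25, 1.28 and 2.62 CPM after 1x0Gy. The lowest irradiated library was below the highest mock library, and Mmp9 rose by 2.71 on the log2 scale (SE 0.77, edgeR adjusted p = 0.029), 6.55-fold. The call did not hold in every one of the 22 alternatives (adjusted p between 0.0043 and 0.65). It was lost without 1x20Gy library 2, the highest (2.12, edgeR adjusted p = 0.086), and without 1x0Gy library 1 (2.29, adjusted p = 0.093), library 2 (2.71, adjusted p = 0.064) or library 4 (2.70, adjusted p = 0.088). Limma voom gave 2.86 with an adjusted p of 0.089. The call was also lost with the replicate block, with the neutrophil covariate, and with the fibroblast and epithelial covariate.

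At day 13 Mmp9 had 5.54, 7.67, 10.6, 10.8, 11.4, 11.9 and 13.06 CPM after 1x20Gy, against 1.08, 1.23, 1.25 and 4.16 CPM after 1x0Gy. Every irradiated library was above every mock library, and the log2 fold change was 2.34 (SE 0.37, edgeR adjusted p = 0.0017), 5.06-fold higher. Neutrophil markers moved with Mmp9. Of the 12 genes of that list 11 had a count in each group of the 1x20Gy comparisons, and 10 in the 3x4Gy and 8 in the 3x0Gy group. They summed to between 111 and 248 CPM after 1x20Gy against 44.0 to 95.8 CPM after 1x0Gy at day 13, to between 34.6 and 532 CPM against 25.5 to 84.98 CPM at day 5, and to between 21.0 and 192 CPM after 3x4Gy against 17.0 to 98.1 CPM after 3x0Gy. S100a8 and S100a9, abundant in neutrophils and also made by monocytes, were called higher at day 13 (2 of 5 tested, log2 fold changes 1.30 and 1.68), and Cxcr2, a neutrophil chemokine receptor, was called higher at day 5 after 1x20Gy (1 of 6 tested, 2.53), while after 3x4Gy 0 of 6 were called. The neutrophil surface marker Ly6g was at 0 in all 31 libraries, and Camp had no count in either group of the 3x4Gy comparison. With the neutrophil list as a covariate the log2 fold change of Mmp9 was 0.83 at day 5 after 1x20Gy (edgeR adjusted p = 0.25) and 1.78 at day 13 (adjusted p = 0.07). In that covariate the day 13 groups did not overlap, at 1.40 to 2.14 after 1x20Gy against 0.88 to 1.36 after 1x0Gy on the log2 scale. The day 13 fit can therefore hardly tell neutrophil markers from irradiation.

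**Figure D3:**
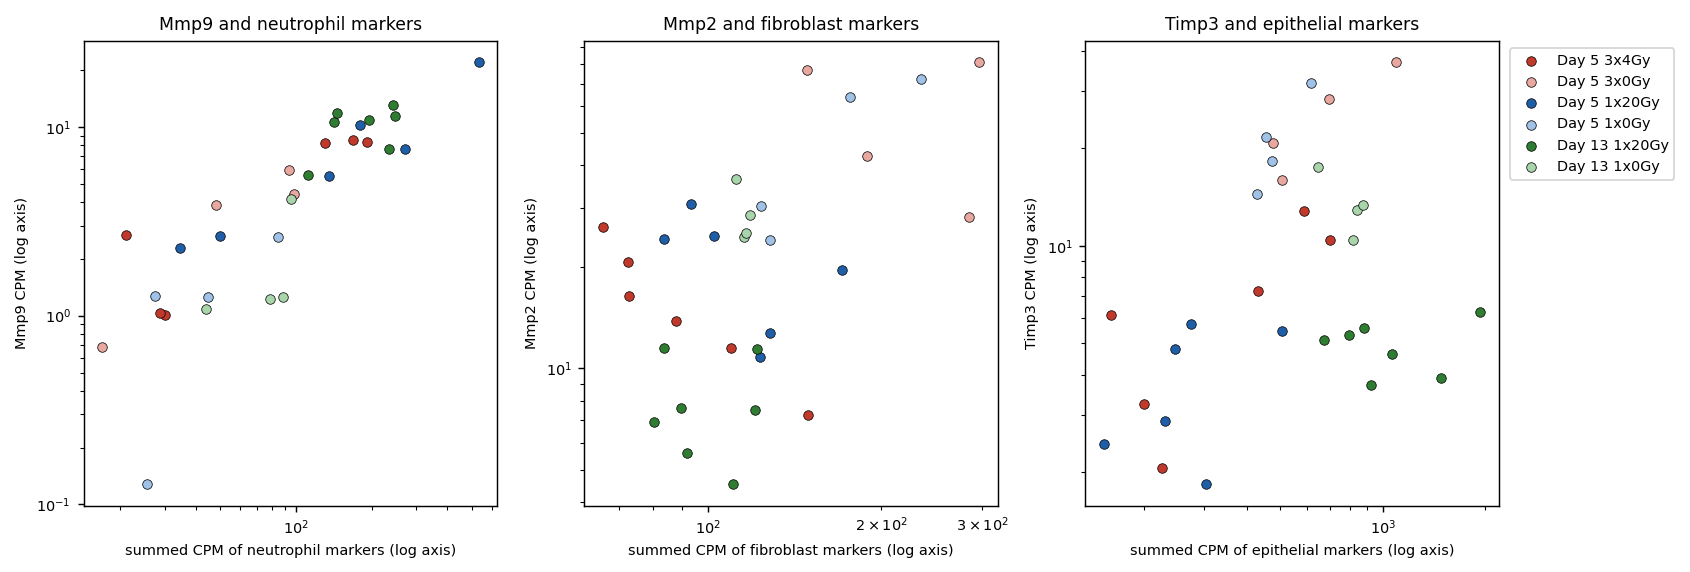
Level of Mmp9 against the summed neutrophil markers, Mmp2 against the summed fibroblast markers and Timp3 against the summed epithelial markers, 1 point per library (CPM, both axes on a log scale). The 1x20Gy library with 22.1 CPM of Mmp9 also had the highest neutrophil sum (532 CPM), and the day 13 1x20Gy libraries have less Timp3 than their mock at like or higher epithelial sums.

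Mmp8 (chr9:7558456-7568485, plus strand), the neutrophil collagenase, had between 2 and 18 counts per library. It had between 1.06 and 4.44 CPM after 1x20Gy at day 5 (median 2.56, n = 6), against 0.799, 1.02, 1.25 and 1.47 CPM after 1x0Gy, with a log2 fold change of 1.10 (SE 0.45, edgeR adjusted p = 0.14). After 3x4Gy it had between 0.947 and 3.44 CPM (median 1.65, n = 6), against 1.03, 1.05, 2.04 and 2.79 CPM after 3x0Gy (0.16, SE 0.46, edgeR adjusted p = 0.85). At day 13, where it was not tested, it had between 0.692 and 4.35 CPM after 1x20Gy (median 2.60, n = 7), against 0.809, 1.46, 1.53 and 1.62 CPM after 1x0Gy. The groups overlapped in all 3 comparisons, and no difference was detectable at these counts.

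Mmp12, the macrophage metalloelastase, and Mmp13, the main interstitial collagenase of rodents, both lie in the metalloproteinase cluster on chromosome 9 (Mmp12 at chr9:7344381-7369499 and Mmp13 at chr9:7272514-7283331, GRCm38, both on the plus strand). Of the 10 genes, 7 had an upstream entry in the RefSeq promoter table (build GRCm38.p6), and Mmp2, Mmp9 and Mmp19 had none. The 250 bases before a RefSeq start of Mmp13 (chr9:7272264-7272513) and of Mmp12 (chr9:7347124-7347373) are shown because they were the 2 members with a match to the AP-1 motif TGAGTCA or its reverse complement TGACTCA, in capitals.

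Mmp13: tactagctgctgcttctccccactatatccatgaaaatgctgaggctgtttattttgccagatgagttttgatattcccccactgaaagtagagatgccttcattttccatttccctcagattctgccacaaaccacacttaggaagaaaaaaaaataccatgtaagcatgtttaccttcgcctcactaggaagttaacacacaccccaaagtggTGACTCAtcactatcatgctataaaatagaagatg

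Mmp12: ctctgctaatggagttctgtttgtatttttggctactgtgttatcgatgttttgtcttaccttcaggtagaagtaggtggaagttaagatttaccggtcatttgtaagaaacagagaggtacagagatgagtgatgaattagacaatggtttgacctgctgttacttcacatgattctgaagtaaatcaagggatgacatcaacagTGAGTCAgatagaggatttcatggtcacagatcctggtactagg

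The match lay 35 bases before the start of Mmp13 and 44 bases before that of Mmp12. For Mmp12 this is the second of its 2 RefSeq starts, and the window of the first held no match. Of all 32841 such windows, 4.46% held the motif on either strand. The GC box GGGCGG, or CCGCCC on the other strand, was found in the windows of 4 members (Mmp14, Timp1, Timp2 and Timp3) and in 32.7% of all windows. These matches describe letters and do not show binding.

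Mmp12 was higher at day 5 in both irradiated groups without passing the test and fell at day 13. After 3x4Gy it had 21.6, 41.4, 59.2, 118, 129 and 202 CPM, against 19.5, 26.4, 80.1 and 81.5 CPM after 3x0Gy (log2 fold change 0.87, SE 0.51, edgeR adjusted p = 0.27). After 1x20Gy at day 5 it had 74.0, 93.3, 98.5, 106, 111 and 235 CPM, against 29.9, 51.2, 58.9 and 86.5 CPM after 1x0Gy (1.08, SE 0.50, edgeR adjusted p = 0.2). Only the lowest irradiated library of the 1x20Gy group fell below the highest mock library, and the difference passed the test in 1 of 22 alternatives, the fit of these groups alone (adjusted p = 0.041, range over alternatives 0.041 to 0.93).

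At day 13 Mmp12 had 18.3, 19.0, 21.1, 29.5, 36.8, 40.9 and 41.6 CPM after 1x20Gy, against 78.1, 79.9, 95.1 and 114 CPM after 1x0Gy. The groups lay far apart, and the log2 fold change was -1.63 (SE 0.22, edgeR adjusted p = 0.0007), 3.09-fold lower and called in all 22 alternatives. Macrophage markers were also lower there: 6 of 12 were called lower (Csf1r, C1qb, C1qc, Apoe, Trem2 and Gpnmb), and the 12 genes summed to between 6653 and 9266 CPM after 1x20Gy against 9369 to 12138 CPM after 1x0Gy. At day 5 the same sum was 5243 to 13692 CPM after 1x20Gy against 9445 to 15383 CPM after 1x0Gy, with 2 of 12 genes called lower (Trem2, Gpnmb), and 6229 to 13184 CPM after 3x4Gy against 7691 to 23819 CPM after 3x0Gy, with Trem2 called lower. The part of macrophage content in the Mmp12 result was not tested.

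Mmp13 had 16.3, 35.5, 59.1, 79.7, 82.5 and 84.0 CPM after 3x4Gy, against 54.5, 57.2, 90.7 and 217 CPM after 3x0Gy (log2 fold change -0.81, SE 0.39, edgeR adjusted p = 0.17). After 1x20Gy at day 5 it had between 37.1 and 83.4 CPM (median 72.1, n = 6), against 55.6, 70.1, 76.5 and 107 CPM after 1x0Gy (-0.22, SE 0.39, edgeR adjusted p = 0.79). Neither day 5 difference exceeded the spread between libraries. At day 13 it had 13.99, 24.1, 35.6, 36.7, 37.0, 38.4 and 46.0 CPM after 1x20Gy, against 45.4, 63.7, 98.0 and 99.2 CPM after 1x0Gy. The highest irradiated library was just above the lowest mock library, and Mmp13 fell by 1.21 on the log2 scale (SE 0.26, edgeR adjusted p = 0.0094). This call was lost without 1x0Gy library 3 (-1.07, edgeR adjusted p = 0.054) and held in 19 of 22 alternatives (adjusted p between 0.00013 and 0.11). The other losses were with the fibroblast and epithelial covariate (-1.16, edgeR adjusted p = 0.11) and with the neutrophil covariate (-1.63, adjusted p = 0.066).

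Mmp14 (chr14:54431612-54445364, plus strand) encodes the membrane-anchored MT1-MMP, which cuts collagen at the cell surface and activates the Mmp2 proenzyme. It was the most abundant proteinase of the members per kilobase in each group except day 5 3x0Gy, where Mmp13 had the higher mean (31.01 ± 6.40 CPM per kb for Mmp14 and 39.3 ± 28.7 for Mmp13, n = 4), within their spread. After 3x4Gy it had 147, 161, 199, 348, 394 and 457 CPM, against 128, 200.3, 204 and 207 CPM after 3x0Gy. The 3x4Gy libraries spread over a wide range that enclosed most of the mock, and the log2 fold change of 0.62 (SE 0.32) did not pass the test (edgeR adjusted p = 0.2). After 1x20Gy it had between 135 and 432 CPM at day 5 (median 303, n = 6), against 231, 245, 259.8 and 311 CPM after 1x0Gy, with a log2 fold change of 0.14 (SE 0.31, edgeR adjusted p = 0.85) that turned to -0.02 when libraries were scaled by their totals. At day 13 it had between 189.7 and 431 CPM after 1x20Gy (median 247, n = 7), against 145, 218, 266 and 551 CPM after 1x0Gy (-0.16, SE 0.28, edgeR adjusted p = 0.78). Groups overlapped in each comparison.

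Mmp19 (chr10:128790910-128800824, plus strand) encodes a secreted proteinase that cuts basement membrane components. Mmp19 had 58.6, 73.7, 101.1, 108, 122 and 164 CPM after 3x4Gy, against 13.9, 21.4, 28.4 and 40.5 CPM after 3x0Gy. Every 3x4Gy library was above every mock library, and Mmp19 rose by 2.00 on the log2 scale (SE 0.37, edgeR adjusted p = 0.0011), 4.01-fold. Day 5 1x20Gy libraries had 63.5, 73.9, 104, 107, 117 and 213 CPM of Mmp19, against 31.01, 32.6, 32.9 and 74.2 CPM after 1x0Gy. A single mock library, 1x0Gy library 3, lay within the irradiated range, and Mmp19 rose by 1.41 on the log2 scale (SE 0.35, edgeR adjusted p = 0.014), 2.65-fold. That call was lost without 1x0Gy library 1 (1.28, edgeR adjusted p = 0.053) or 1x0Gy library 4 (1.30, adjusted p = 0.064), and held in 19 of 22 alternatives (adjusted p between 0.0018 and 0.3).

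At day 13 Mmp19 had 10.7, 15.5, 18.2, 18.4, 20.0, 20.7 and 20.8 CPM after 1x20Gy, against 9.70, 9.81, 18.0 and 18.3 CPM after 1x0Gy. The groups overlapped, and the log2 fold change of 0.34 (SE 0.22, edgeR adjusted p = 0.39) did not pass the test. Of 10 monocyte markers, Ccr2, the chemokine receptor of inflammatory monocytes, was called higher in both day 5 comparisons, and F13a1 was called lower after 3x4Gy. The 10 monocyte genes summed to between 891 and 1844 CPM after 3x4Gy against 862 to 1491 CPM after 3x0Gy, and to between 909 and 2275 CPM after 1x20Gy against 890.2 to 1244 CPM after 1x0Gy at day 5. Of 8 dendritic cell markers, Zbtb46, a transcription factor of conventional dendritic cells, was called higher in both (0.84 after 3x4Gy and 1.03 after 1x20Gy), and Ccr7 after 3x4Gy (0.88). These 8 genes, all with counts in every group, summed to between 361 and 643 CPM after 3x4Gy against 234 to 388 CPM after 3x0Gy, and to between 383 and 692 CPM after 1x20Gy against 248 to 445 CPM after 1x0Gy. Of 4 tested mast cell and basophil genes, 1 was called higher after 3x4Gy, the basophil gene Mcpt8. The log2 fold changes of Cpa3 (0.16), Mcpt4 (1.12) and Tpsb2 (-0.90) did not pass the test there. After 1x20Gy at day 5, 3 were called higher (Cpa3, Mcpt4 and Mcpt8). The part of these cells in the Mmp19 result was not tested. With the fibroblast and epithelial covariate the log2 fold change of Mmp19 was 1.61 after 3x4Gy (edgeR adjusted p = 0.12) and 1.04 after 1x20Gy at day 5 (adjusted p = 0.3). That covariate fully or nearly separated irradiated from mock libraries at day 5, so these fits can hardly tell it from irradiation.

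**Figure D4:**
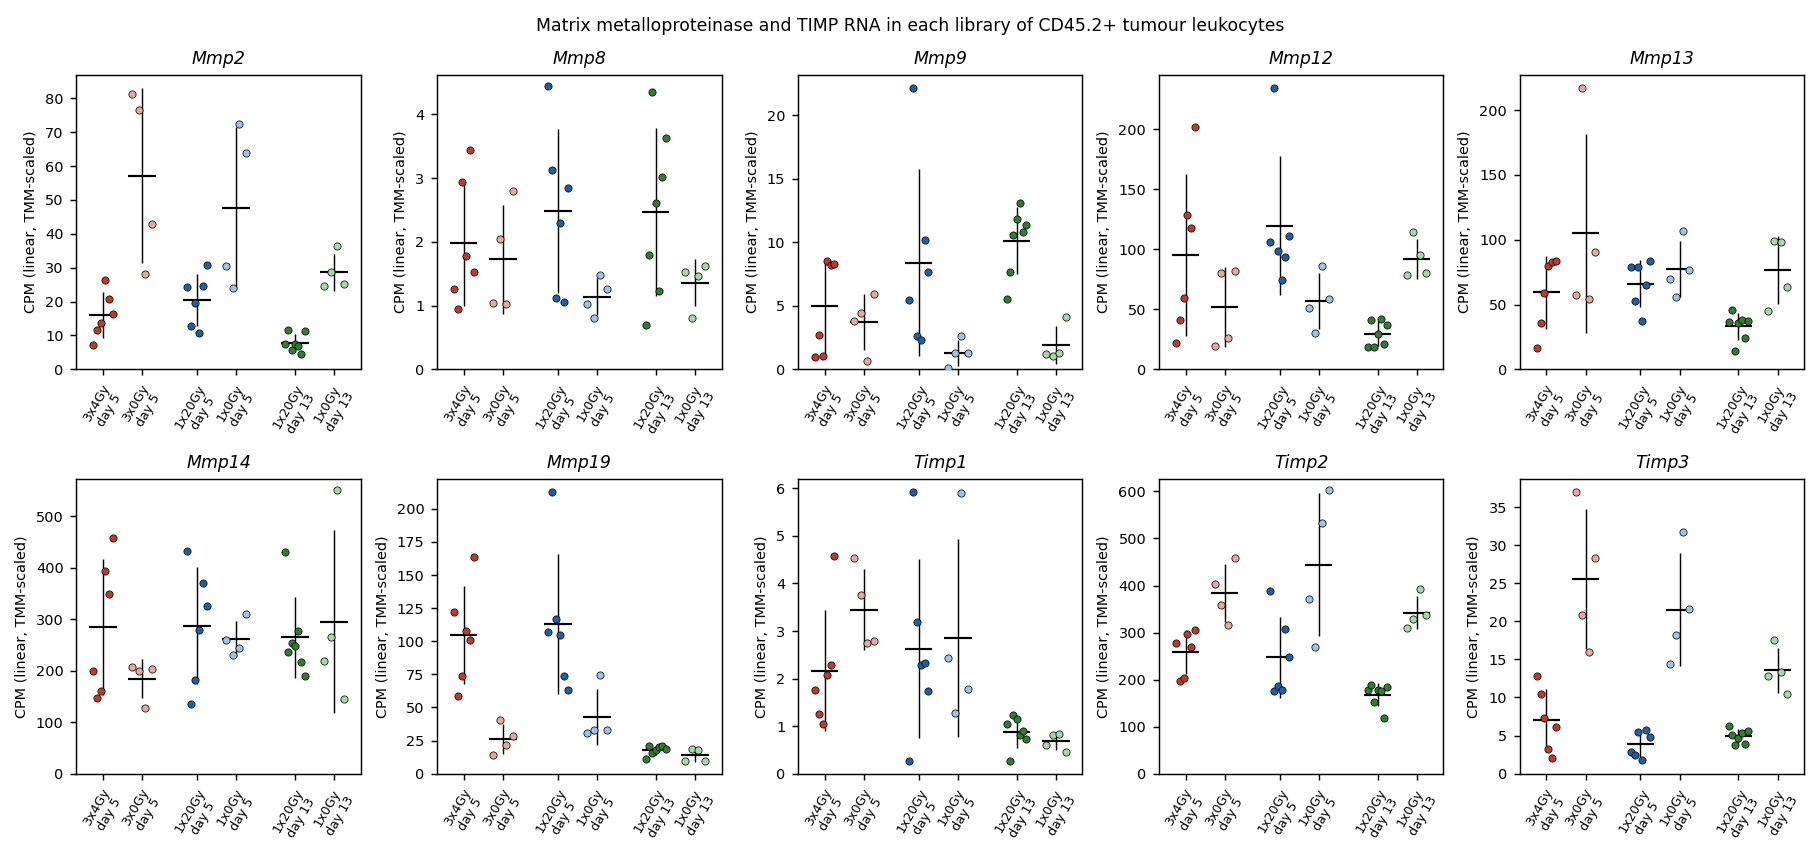
CPM of each of the 10 genes in every library (points, linear axes that start at 0 and differ between genes), with the group mean (horizontal line) and SD (vertical line), each irradiated group left of its mock. Timp3 is lower in every irradiated library than in any library of its own mock, and Mmp19 after 3x4Gy (58.6 to 164 CPM) lies above 3x0Gy (13.9 to 40.5 CPM).

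Timp3 (chr10:86300372-86349506, plus strand) encodes the inhibitor that stays bound to the extracellular matrix and that also inhibits the sheddase ADAM17. Timp3 had 2.06, 3.25, 6.11, 7.25, 10.4 and 12.8 CPM after 3x4Gy, against 15.9, 20.8, 28.4 and 37.0 CPM after 3x0Gy. After 1x20Gy at day 5 it had 1.83, 2.44, 2.87, 4.80, 5.44 and 5.74 CPM, against 14.4, 18.2, 21.7 and 31.8 CPM after 1x0Gy. At day 13 it had 3.73, 3.92, 4.63, 5.12, 5.31, 5.57 and 6.23 CPM after 1x20Gy, against 10.4, 12.9, 13.4 and 17.5 CPM after 1x0Gy. In all 3 comparisons every irradiated library was below every mock library. Timp3 fell by 1.84 on the log2 scale after 3x4Gy (SE 0.37, edgeR adjusted p = 0.0021), 3.57-fold lower. It fell by 2.46 after 1x20Gy at day 5 (SE 0.38, edgeR adjusted p = 0.00031), 5.51-fold lower, and by 1.45 at day 13 (SE 0.20, adjusted p = 0.00096), 2.73-fold lower. Each of the 3 calls held when any single library was left out.

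Epithelial markers moved with Timp3 at day 5. The 8 genes of that list summed to between 161 and 700.0 CPM after 3x4Gy against 478 to 1095 CPM after 3x0Gy, with 2 of 8 called lower (Epcam, Krt14), and to between 153 and 506 CPM after 1x20Gy against 429 to 617 CPM after 1x0Gy, with 5 of 8 called lower (Epcam, Krt5, Krt14, Krt18 and Cldn7). At day 13 the sum was 673 to 1931 CPM after 1x20Gy against 647 to 878 CPM after 1x0Gy. Cldn4 was called higher there and Krt14 lower, and Timp3 was lower at like or higher epithelial sums. Fibroblast markers were lower beside Timp3 in all 3 comparisons, apart from Thy1, which was higher after 1x20Gy. Of 8 tested, 7 were called lower after 3x4Gy, 3 after 1x20Gy at day 5 and 4 at day 13. With the fibroblast and epithelial covariate the log2 fold change of Timp3 was -0.19 after 3x4Gy (edgeR adjusted p = 0.79) and -1.05 after 1x20Gy at day 5 (adjusted p = 0.09). At day 13 it was -1.25 and still called (edgeR adjusted p = 0.032). That covariate fully or nearly separated irradiated from mock libraries at day 5, so the day 5 fits can hardly tell it from irradiation. At day 13 its lists moved in opposite directions, so it cannot adjust for either list alone. The neutrophil covariate gave -1.40 at day 13 (adjusted p = 0.063). The part of epithelial cells and fibroblasts in the Timp3 result was not tested further.

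Timp2 (chr11:118301069-118355740, minus strand) encodes the inhibitor that also bridges Mmp14 and the Mmp2 proenzyme, and it was the most abundant TIMP in every group. Timp2 had 197, 204, 269.8, 277, 298 and 306 CPM after 3x4Gy, against 317, 358, 403 and 459 CPM after 3x0Gy. The groups did not overlap, yet the log2 fold change of -0.57 (SE 0.23) did not pass the test over all genes (edgeR adjusted p = 0.11), and it was -0.69 with an adjusted p of 0.032 when libraries were scaled by their totals (range over 22 alternatives 0.032 to 0.55). Day 5 1x20Gy libraries had 175, 177, 187, 247, 308 and 389 CPM of Timp2, against 269, 371, 533 and 603 CPM after 1x0Gy. The groups overlapped, and Timp2 fell by 0.85 on the log2 scale (SE 0.23, edgeR adjusted p = 0.024), 1.80-fold lower. That call was lost without 1x0Gy library 3 (-0.75, edgeR adjusted p = 0.097), 1x0Gy library 4 (-0.66, adjusted p = 0.14), 1x20Gy library 2 (-0.76, adjusted p = 0.054) or 1x20Gy library 4 (-0.77, adjusted p = 0.059), and held in 17 of 22 alternatives (adjusted p between 0.0035 and 0.29).

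At day 13 Timp2 had 118, 153, 176, 177, 177, 185 and 189 CPM after 1x20Gy, against 309.8, 329, 338 and 391.8 CPM after 1x0Gy. The groups lay well apart, and Timp2 fell by 1.03 on the log2 scale (SE 0.13, edgeR adjusted p = 0.00058), 2.04-fold lower and called in all 22 alternatives. None of the alternatives had macrophage markers as a covariate. The macrophage sum was also lower at day 13, at 6653 to 9266 CPM after 1x20Gy against 9369 to 12138 CPM after 1x0Gy. The part of macrophage content in the Timp2 result was not tested. Timp1 (chrX:20870166-20874735, plus strand), a soluble inhibitor that is often induced in inflammation, was scarce, with between 1 and 36 counts per library. It had between 1.04 and 4.58 CPM after 3x4Gy (median 1.91, n = 6), against 2.74, 2.79, 3.75 and 4.53 CPM after 3x0Gy (log2 fold change -0.65, SE 0.53, edgeR adjusted p = 0.44), and between 0.261 and 5.92 CPM after 1x20Gy at day 5 (median 2.31, n = 6), against 1.28, 1.79, 2.42 and 5.89 CPM after 1x0Gy (-0.07, SE 0.50, edgeR adjusted p = 0.96). At day 13 it had between 1 and 4 counts in each library of both groups and was not tested. Timp1 showed no difference beyond its spread at this depth.

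Summed per kilobase over the 7 proteinases and over the 3 inhibitors, the proteinase level divided by the TIMP level had a median of 1.75 after 3x4Gy (range 1.07 to 2.25, n = 6) against 0.804 after 3x0Gy (0.700 to 1.64, n = 4). It was 2.08 after 1x20Gy at day 5 (1.57 to 2.82, n = 6) against 0.941 after 1x0Gy (0.740 to 1.11, n = 4). At day 13 it was 1.51 after 1x20Gy (1.31 to 2.02, n = 7) against 1.10 after 1x0Gy (0.804 to 1.54, n = 4). Only the day 5 1x20Gy ranges did not overlap, and the ratio describes transcripts, not enzyme activity. Its inhibitor part was nearly all Timp2, and its median inhibitor sum was lower in each irradiated group: 73.3 against 106 CPM per kb for 3x4Gy and 3x0Gy, 59.2 against 124 for 1x20Gy and 1x0Gy at day 5, and 47.3 against 88.0 at day 13. The median proteinase sum was 114 CPM per kb after 3x4Gy against 95.7 after 3x0Gy, 131 after 1x20Gy against 107 after 1x0Gy at day 5, and 70.7 after 1x20Gy against 93.7 after 1x0Gy at day 13.

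The regimens were set against each other at day 5 as the difference of their responses, each over its own mock. edgeR called 0 of 12021 genes (0.0%) and none of the 10 members, with 714 genes at an unadjusted p below 0.05. DESeq2 called 1 gene and limma voom 0. Among the members, Mmp9 had the largest difference, -2.31 on the log2 scale for 3x4Gy minus 1x20Gy (SE 1.05, edgeR adjusted p = 0.8), with responses of 0.40 and 2.71. The responses of Mmp19 were 2.00 and 1.41 (difference 0.60, SE 0.49, edgeR adjusted p = 0.83), those of Mmp2 -1.83 and -1.22 (difference -0.62, SE 0.52, adjusted p = 0.83), and those of Timp3 -1.84 and -2.46 (difference 0.63, SE 0.54, adjusted p = 0.84). A call in 1 regimen and not in the other therefore does not show that the regimens differed. Between the mock schedules 3x0Gy and 1x0Gy edgeR also called 0 of 12021 genes (0.0%; 667 at an unadjusted p below 0.05, DESeq2 2, limma voom 0), and members differed by at most 1.5 on the log2 scale (Mmp9, SE 0.87, edgeR adjusted p = 0.84).

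The response to 1x20Gy was compared between days in a fit of all 31 libraries. It called 51 of 12061 genes (0.423%, of which 0.207% higher), among them 1 of 10 members. Mmp12 had the difference, -2.70 on the log2 scale for day 13 minus day 5 (SE 0.61, edgeR adjusted p = 0.045), with a response of -1.63 at day 13 and of 1.08 at day 5. The call is close to the threshold: it was lost with limma voom (-2.73, adjusted p = 0.068), while DESeq2 kept it (-2.69, adjusted p = 0.0098). Of 21 fits that each left out a single library, 18 lost the call (differences from -2.98 to -2.38, edgeR adjusted p from 0.031 to 0.099 over the 21 fits). It held without day 13 1x20Gy library 2, day 13 1x20Gy library 5 or day 5 1x20Gy library 3. Mmp19 (-1.05, SE 0.45, edgeR adjusted p = 0.31) and Timp3 (1.03, SE 0.48, adjusted p = 0.37) did not pass the test.

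Within groups, after each group's mean was subtracted, Mmp12 and Mmp13 varied together with a Pearson r of 0.799 over the 20 day 5 libraries and 0.696 over the 11 day 13 libraries. Mmp2 and Mmp13 had an r of 0.727 at day 5 and 0.711 at day 13, and Mmp2 and Timp2 0.625 and 0.866. These are descriptions, over libraries that share their scaling and differ in depth and cell content. Mmp14 and Timp2 had 0.716 at day 5 and 0.345 at day 13. Among all abundant genes (mean log2 CPM of at least 4), the closest to Mmp2 at day 5 was Vcam1, an adhesion molecule (r 0.916; 0.692 at day 13). The closest to Mmp9 was S100a8 (0.884; 0.481), to Mmp12 Lpl, which encodes lipoprotein lipase (0.921; -0.013), and to Mmp13 Mcfd2 (0.947; 0.139). The closest to Mmp19 was Fn1, which encodes fibronectin (0.865; 0.119), to Mmp14 Cd180 (0.894; 0.103), to Timp2 Ddrgk1 (0.882; -0.102) and to Timp3 Fxyd3 (0.870; 0.159), followed by Sox9 (0.845) and Krt18 (0.840), genes of epithelial cells. For Mmp8 and Timp1, at low counts, the closest were Agps (0.767) and Fem1b (0.739). Of these pairs Mmp2 with Vcam1 and Mmp9 with S100a8 kept an r above 0.4 at day 13.

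The other 17 genes of the family were mostly silent in these cells, and 2 of 17 passed the count filter. Mmp25, a membrane-anchored proteinase of leukocytes, had a mean of 6.40 ± 1.13 CPM after 3x4Gy (SD, n = 6) and 3.61 ± 1.06 CPM after 3x0Gy (n = 4), and rose by 0.82 on the log2 scale (SE 0.25, edgeR adjusted p = 0.038). It had 5.98 ± 1.45 CPM after 1x20Gy (n = 6) and 3.14 ± 0.883 CPM after 1x0Gy (n = 4) at day 5, and rose by 0.92 (SE 0.25, edgeR adjusted p = 0.02). At day 13 its difference was -0.12 (SE 0.36, edgeR adjusted p = 0.88). Mmp15, another membrane-type proteinase, had 1.78 ± 2.31 CPM after 3x4Gy (n = 6) and 8.05 ± 2.60 CPM after 3x0Gy (n = 4), and fell by 2.00 (SE 0.58, edgeR adjusted p = 0.026). Its log2 fold change after 1x20Gy was -1.70 at day 5 (SE 0.67, edgeR adjusted p = 0.12) and 0.36 at day 13 (SE 0.25, adjusted p = 0.43), neither of which passed the test. Mmp1a, Mmp1b and Mmp24 had no count in any library. Without a stated strand setting, it cannot be said whether a member shares reads with a gene whose span overlaps it on the other strand. The pairs were Mmp12 and Mmp1b, Timp1 and Syn1, Timp3 and Syn3, and Mmp19 with Gm47093 and Tmem198b. Whether their exons overlap was not checked. Timp2 overlaps Cep295nl on its own strand.

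Of 26 further genes of pericellular proteolysis, 18 were tested at day 5 and 17 at day 13. After 3x4Gy 0 were called higher and 3 lower, after 1x20Gy at day 5 0 higher and 6 lower, and at day 13 1 higher (Adam19, 0.54) and 5 lower. Their median log2 fold changes were -0.30, -0.09 and -0.35. Lcn2, lipocalin 2, whose protein binds and protects Mmp9, fell in all 3 comparisons, by 2.51 after 3x4Gy (edgeR adjusted p = 0.0015), by 1.98 after 1x20Gy at day 5 (adjusted p = 0.012) and by 1.38 at day 13 (adjusted p = 0.0091). Its level was 16.4 ± 12.8 CPM after 1x20Gy (n = 6) and 65.9 ± 18.2 CPM after 1x0Gy (n = 4) at day 5, while Mmp9 was higher. Of the epithelial list, 2 of 8 genes were called lower after 3x4Gy and 5 of 8 after 1x20Gy at day 5. At day 13, 1 of its 7 tested genes was called higher and 1 lower. The part of epithelial cells in the Lcn2 result was not tested. Plau, the urokinase that activates plasminogen, fell after 1x20Gy by 1.30 at day 5 (SE 0.33, edgeR adjusted p = 0.014) and by 0.69 at day 13 (SE 0.19, adjusted p = 0.03), and Serpine2, a protease inhibitor, fell by 1.69 in both day 5 comparisons (SE 0.29). Furin, which activates proproteins such as that of Mmp14, and the clearance receptor Lrp1 were called lower at day 13 (-0.41 and -0.90), and Bsg, an inducer of metalloproteinases, and the aggrecanase Adamts1 at day 5 after 1x20Gy (-0.63 and -1.69).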

How the data were processed

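CD45.2+ cells were sorted from tumours and sequenced in bulk, 1 library per sample, and the authors deposited whole-number read counts per gene symbol. Per the submitters' processing notes, bcl2fastq 2.20.0.422, cutadapt 1.5, HISAT2 2.0.4 and HTSeq 0.9.1 were used with GRCm38 (mm10). The annotation, the strand setting and filters are not given in the sources used here. The 5 HTSeq summary lines were left out of library sizes and tests; reads outside genes were 5.66% to 32.0% of a library.

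Groups were taken from the sample titles. Counts were tested with edgeR 4.0.16 (R 4.3.3; TMM, the quasi-likelihood test, and genes kept by filterByExpr at min.count 10 and min.total.count 15), with Benjamini-Hochberg adjustment over all genes tested and calls at an adjusted p below 0.05. The 20 day 5 libraries formed 1 fit with 4 groups, the 11 day 13 libraries another, and all 31 a further fit for the difference between days. The SE is the absolute log2 fold change divided by the square root of F. CPM per kb used GENCODE M21 exon lengths, and log2 CPM used a prior count of 2. The 69 replicate pairs differed by more than sampling noise (chi-square per degree of freedom at least 3.67), and each library was treated as 1 replicate. This spread does not show that the libraries came from separate animals. The tests were tried on simulated data first.

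All 10 members are named in every comparison. Members and lists were chosen with earlier results of these data known. Of the other family genes and the genes of pericellular proteolysis, those called are named, with levels or tests for the ones described, apart from a gene that is not reported here. Likeness is the Pearson r of log2 CPM with group means removed. Alternatives were DESeq2 1.42.0, limma voom 3.58.1, other scalings, filters and thresholds, the groups compared alone, marker lists as covariates, a replicate block, and each library or RP23-81C12.3 left out. Promoter windows came from RefSeq, read with Python 3.11.15.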

Additional observations from a re-analysis of the deposited data

Results flagged for a closer look

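Of 60 combinations of a gene and a group, 7 had a library far from the others of its group by Dixon's test, where chance flags about 1 in 20 groups. At day 5, 1x20Gy library 2 was the highest of 6 for both Mmp12 (235 CPM) and Mmp19 (213 CPM). It was also the library with the most Mmp9 (22.1 CPM) and the highest neutrophil sum (532 CPM). In the mock, 1x0Gy library 3 was the highest of 4 for Mmp19 (74.2 CPM) at day 5, and 1x0Gy library 4 the highest of 4 for Mmp9 (4.16 CPM) at day 13. Mmp14 was lowest of 4 in 3x0Gy library 3 (128 CPM) at day 5 and highest of 7 in 1x20Gy library 1 (431 CPM) at day 13. Timp1 was highest of 6 in 3x4Gy library 6 (4.58 CPM, 21 counts).

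The response of Mmp12 to 1x20Gy differed between the days by -2.70 on the log2 scale, day 13 minus day 5, in a test of the difference itself (edgeR adjusted p = 0.045). Day and experiment cannot be told apart in it.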

How the results depend on the processing

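At day 5 the fibroblast and epithelial covariate left 0 members called after 3x4Gy (94 genes in all) and 0 after 1x20Gy (133 genes). It lay apart between 3x4Gy and 3x0Gy and barely overlapped between 1x20Gy and 1x0Gy, so these fits can hardly tell the lists from irradiation. At day 13 it left 339 genes and 5 of 6 members, without Mmp13. The fibroblast and epithelial lists moved in opposite directions at day 13, so their joint mean cannot adjust for either list alone. The neutrophil covariate left 3 members and 226 genes at day 13, where Mmp9, Mmp13 (-1.63, edgeR adjusted p = 0.066) and Timp3 (-1.40, adjusted p = 0.063) lost their calls. The day 13 groups did not overlap in that covariate, so the fit can hardly tell neutrophil markers from irradiation. In the difference between days no member (0) was called with the fibroblast and epithelial covariate, limma voom, upper quartile scaling or a threshold of 0.01, and the calls over all genes were 15, 3, 5 and 1, with 228 by DESeq2 and 85 without a filter. A threshold of 0.01 left 665 genes after 3x4Gy, 425 genes and 1 member after 1x20Gy at day 5, and 290.0 genes at day 13. Limma voom called 3 members after 1x20Gy at day 5. A fit of the groups compared alone called 702 genes after 3x4Gy. DESeq2 and the fit without a filter called 1 and 1 gene between regimens, and 2 and 1 between mocks.

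Scaling by library totals called 1533 genes at day 13 (222 higher and 1311 lower, where TMM gave 467 and 424) and moved the median of all genes to -0.225 there and to -0.104 and -0.109 after 3x4Gy and 1x20Gy at day 5. The split there was 325 higher and 1084 lower after 3x4Gy (TMM 625 and 852), and 210.0 higher and 947 lower after 1x20Gy (TMM 441 and 587). It turned no called member.

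Uncalled members changed sign with the fibroblast and epithelial covariate: Mmp8 (-0.64), Mmp9 (-1.68), Mmp12 (-0.67) and Mmp14 (-0.14) after 3x4Gy, Mmp12 (-0.16) and Mmp14 (-0.41) after 1x20Gy at day 5, and Mmp14 (0.23) at day 13. Mmp14 after 1x20Gy also turned at day 5 with library totals (-0.02) and the neutrophil covariate (-0.28), and at day 13 with the neutrophil covariate (0.19). The causes were not tested.

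With a library left out, 3x4Gy kept 3 calls among the members, 1x20Gy had 1 to 5 at day 5 and 5 to 6 at day 13, and the difference between days 0 to 1. The day 5 count for 1x20Gy was 1 without 1x0Gy library 4, 2 without 1x20Gy library 2, and 3 without 1x0Gy library 1, 1x0Gy library 3 or 1x20Gy library 4. Calls over all genes ranged from 556 to 1024 after 1x20Gy at day 5 (556 without 1x0Gy library 4, 582 without library 3), from 306 to 1264 at day 13 (306 without 1x0Gy library 3, 588 without library 2), from 0 to 1 between regimens and between mocks, and from 1 to 110.0 between days. Uncalled values that turned ranged from -0.07 to 0.57 (Mmp8, 3x4Gy), -0.06 to 0.28 (Mmp14, day 5), -0.50 to 0.54 (Timp1, 1x20Gy at day 5) and -0.39 to 0.33 (Mmp14, day 13).

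Replicate numbers were not taken as pairs in the main fits. Deviations of same-numbered libraries correlated between -0.255 and 0.401, and not every pair was above 0.1. Differently numbered libraries were not correlated for reference, so this check cannot show or exclude pairing. With the replicate number as a block, 1223, 876 and 1064 genes and 3, 4 and 6 members were called after 3x4Gy, after 1x20Gy at day 5 and at day 13. Mmp9 at day 5 was 2.19 (edgeR adjusted p = 0.092), Mmp14 after 1x20Gy was -0.18 at day 5 and 0.12 at day 13, and between days 8 genes and 0 members were called. Depth limits Mmp8, Mmp9 and Timp1, which had as few as 1 or 2 counts in a library.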
